A study of Xenopus laevis with 6 samples.

Results

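Extracellular matrix and integrin genes were examined in cultured Xenopus laevis animal caps after knockdown of ERK3 or of TFAP2A. A gene belonged to the group when its symbol, with the final .L or .S ignored, named a collagen chain, an integrin alpha or beta subunit, a laminin chain, a matrix metalloproteinase (mmp), a tissue inhibitor of metalloproteinases (timp), a fibrillin, a fibulin or an adamts protease, or was fn1, sparc, nid1, nid2 or lum. For each gene the probe set with the highest mean log2 intensity was taken, of those annotated with only that symbol, and 65 of 11303 symbols qualified. They comprised 18 collagens, 16 integrin subunits, 18 mmp genes, 4 timp genes, 3 sparc or lum genes, 1 fibrillin, 1 fibulin, and 1 gene each for fibronectin, a nidogen, a laminin and an adamts protease. Xenopus laevis is allotetraploid, so a gene can be present as an L and an S copy (homeologues), which were kept apart: 44 members were L copies, 19 were S copies and 2 carried no such suffix.

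Animal caps are explants of blastula ectoderm that form epidermis in isolation. Embryos received morpholinos, antisense oligonucleotides that block translation or splicing, on the animal side of every blastomere of the 4-cell embryo: ERK3 MO1/2 (40 ng of MO1 plus 40 ng of MO2), TFAP2A MO1/2 (40 ng of each) or Control MO (80 ng). Caps were explanted at stage 9 and collected at stage 15, and each of the 3 groups had 2 arrays that the labels call biological replicates. No group combined a morpholino with a rescuing RNA, and every group, controls included, carried the same total dose. The sources used here do not state how many caps were pooled per array.

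The extracellular matrix is built from collagens, laminins, nidogens and fibronectin, and cells bind it through integrins, each a pair of an alpha and a beta subunit. Collagen chains are hydroxylated and folded into triple helices in the endoplasmic reticulum before secretion, and inside the cell talin, kindlins, alpha-actinin and focal adhesion kinase connect integrins to actin. Mmp enzymes cleave matrix proteins and are inhibited by timp proteins. In frog gastrulae, animal cap cells assemble fibronectin fibrils on the inner face of the blastocoel roof and bind them through integrin alpha5 beta1.

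Values are probe set intensities on a linear scale, and a change is the difference of group mean log2 intensities with the standard error (SE) of the limma fit. Intensities of different probe sets cannot be compared. A probe set is said to have risen, fallen or changed where its limma adjusted p, over all 32539 probe sets tested, was under 0.05. The median intensity of an array was between 23.2 and 24.6, and its lower quartile between 6.36 and 6.96. Across probe sets, log2 values of replicate arrays correlated at 0.987 to 0.989, and those of arrays from different groups at 0.962 to 0.983. The 3′ gapdh control probe set had intensities of 42.1 and 84.2 in ERK3 knockdown caps, 180.5 and 242.5 in TFAP2A knockdown caps, and 296.2 and 335.4 in control caps. Whether this difference has a part in the results below was not tested. Levels of tfap2a.L were 1817 and 1425 in ERK3 knockdown caps, 1495 and 1287 in TFAP2A knockdown caps, and 1126 and 753 in control caps, and neither change passed (limma adjusted p = 0.0847 and 0.171). Those of tfap2a.S were 1237 and 1056, 717.9 and 741.8, and 718.3 and 528.2 in the same order. This copy rose by 0.89 ± 0.18 on the log2 scale with ERK3 MO1/2 (limma adjusted p = 0.0362) and did not pass with TFAP2A MO1/2 (0.471). A morpholino need not lower its target's transcript, and 0 probe sets carried the ERK3 symbol, so the knockdowns themselves were not checked here.

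Most of the group did not pass the test. In ERK3 knockdown caps 7 of 65 members changed, 10.8%, against 10.6% of all probe sets and 11.8% of all symbols, with 3 higher and 4 lower than in control caps (background 4.49% and 6.09% of all probe sets). With the arrays quantile-normalized again the split was 3 higher and 2 lower, where 10.7% of all probe sets passed. In TFAP2A knockdown caps 8 of 65 changed, 12.3%, against 11.3% of all probe sets and 12.3% of all symbols, with 4 higher and 4 lower (background 5.3% and 6%). Between ERK3 and TFAP2A knockdown caps 3 of 65 differed, 4.62%, against 4.77% of all probe sets and 5.7% of all symbols, with 2 higher and 1 lower (background 2.28% and 2.49%). Over all 65 members these shares are near the background. Arrays of the compared groups did not overlap for 31 of 65 members with ERK3 MO1/2, against 58.6% of all symbols, for 30 with TFAP2A MO1/2, against 58.9%, and for 21 in the direct contrast, against 52.1%. With ERK3 MO1/2 the members had a median log2 change of 0.05, beside 0.04 over all probe sets, and with TFAP2A MO1/2 the median was 0.02 for both. The direct difference had a median of 0.04, beside 0.02 over all probe sets. In total 10 members changed in at least 1 contrast and 55 in none. Both knockdowns share the control arrays, and 5 members passed in the same direction in both while 0 passed in opposite directions. Matching counts over all symbols were not made for these joint counts. They are therefore not read as a trait of the members.

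**Figure D1:**
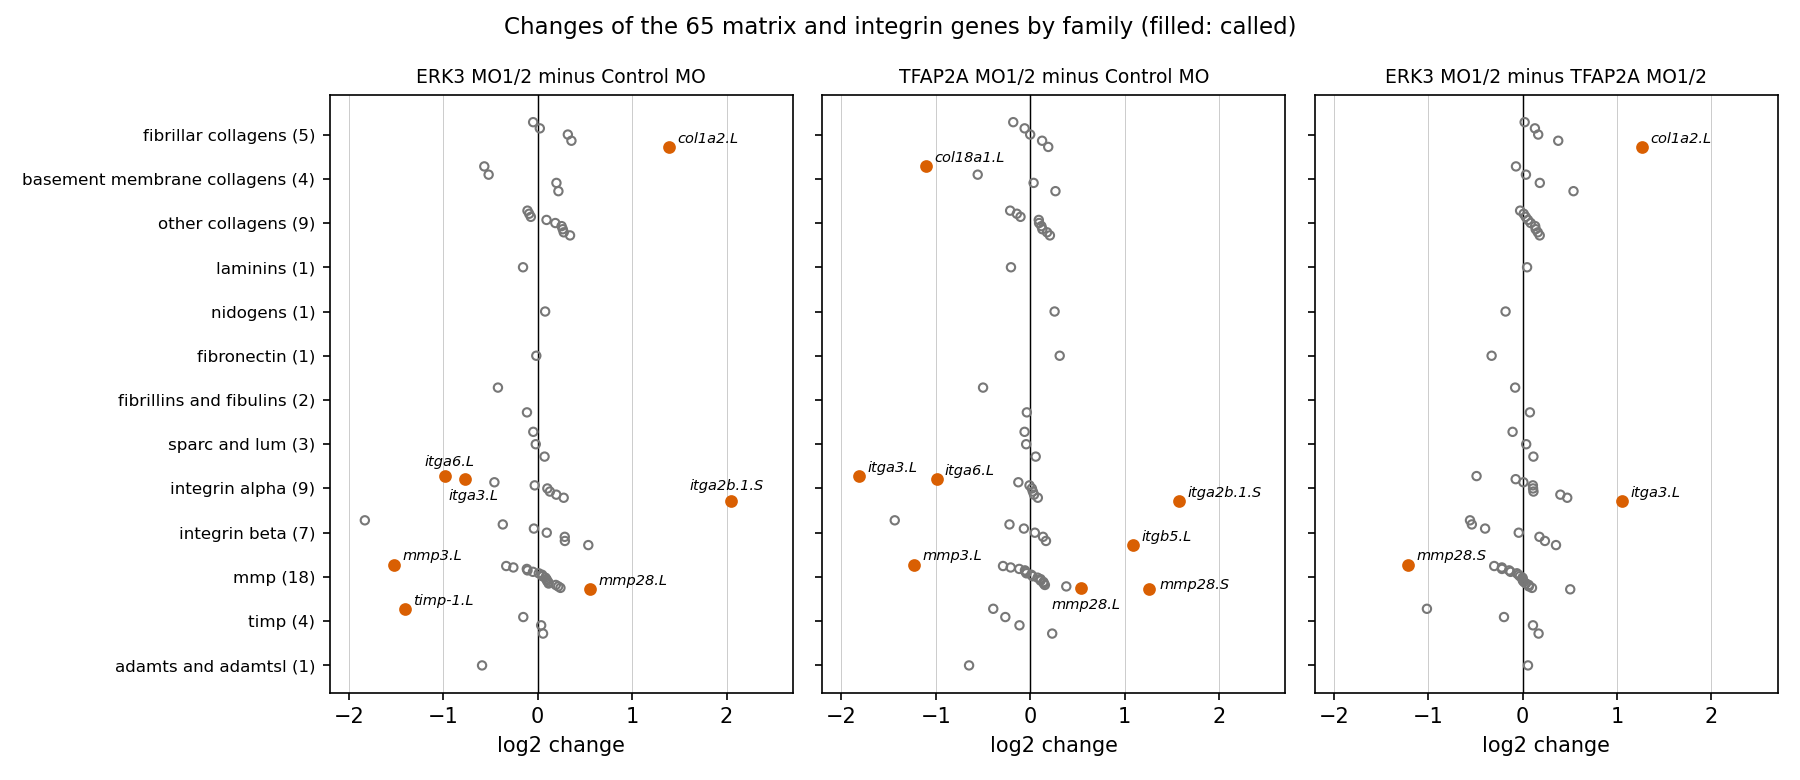
Log2 change of every member for ERK3 MO1/2 minus Control MO (left), TFAP2A MO1/2 minus Control MO (middle) and ERK3 MO1/2 minus TFAP2A MO1/2 (right). Each family has a row, with its member count in parentheses. Filled orange points passed the test and open points did not. The 7 filled points on the left, 8 in the middle and 3 on the right lie on both sides of zero.

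Many members read near the bottom of the array. On all 6 arrays 25 of 65 lay under the lower quartile, against 1521 of all 11303 symbols. Only 15 of 65 exceeded the array median on at least 2 arrays, against 7543 of all symbols, so the members were dimmer than symbols in general. The dim members included 9 of 18 mmp genes, all 3 sparc and lum genes, both timp2 copies, the cartilage collagen gene col2a1.L, and col3a1.S. For these genes the array gives little room to see a fall. Of the 15 brighter members, 5 changed with ERK3 MO1/2 and 5 with TFAP2A MO1/2 (33.3% each), and 2 in the direct contrast (13.3%). In a fit of only the probe sets that were as bright by this rule, 19.5%, 20.3% and 9.57% of all passed. The rule admits a gene through any group where it is high, and itga2b.1.S exceeded the median only on its ERK3 arrays. Such a rule favours genes that changed, so these shares are not neutral. Whether the brighter members differ from other genes was not tested. In such bulk samples fewer cells of a type and less RNA per cell cannot be told apart.

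Markers of the cell types that such caps could hold were read on the same arrays, where 10.6% of all probe sets changed in ERK3 and 11.3% in TFAP2A knockdown caps. Epidermal markers, 24 probe sets for 15 of 19 symbols, summed to intensities of 41492 and 43694 in ERK3 knockdown caps, 34446 and 34233 in TFAP2A knockdown caps, and 46688 and 48577 in control caps, where 3 probe sets lay under the lower quartile on all arrays. With ERK3 MO1/2, 1 of 24 rose and 2 fell, and with TFAP2A MO1/2, 7 fell (29.2%). The epidermal list includes both tfap2a copies, and the probe set that rose was tfap2a.S, already given above as a morpholino target. Its rise is therefore not a separate reading of cell type. Mesoderm markers, 27 probe sets with 7 under the lower quartile, summed to 331 and 370 in ERK3 knockdown caps, 831 and 580.2 in TFAP2A knockdown caps, and 709 and 540.1 in control caps, with 4 falling in ERK3 (14.8%) and 1 in TFAP2A knockdown caps (3.7%). Neural crest markers, 15 probe sets with 5 under the lower quartile, summed to 1634 and 1911 in ERK3 knockdown caps, 1437 and 1679 in TFAP2A knockdown caps, and 2808 and 2789 in control caps, with 3 (20%) and 2 (13.3%) falling. Myeloid and blood markers, 14 probe sets with 4 under the lower quartile, summed to 299.6 and 560.2 in ERK3 knockdown caps, 499 and 617 in TFAP2A knockdown caps, and 543 and 765 in control caps, with 2 (14.3%) and 0 falling. Endoderm markers, 20 probe sets, summed to 756 and 1205 in ERK3 knockdown caps, 1099 and 1782 in TFAP2A knockdown caps, and 1070 and 1636 in control caps, with 4 under the lower quartile, 2 falling in ERK3 and 2 rising in TFAP2A knockdown caps (10% each). Neural markers, 16 probe sets, summed to 1066 and 1359 in ERK3 knockdown caps, 1198 and 1355 in TFAP2A knockdown caps, and 1423 and 1691 in control caps, with 3 under the lower quartile and 1 falling in each (6.25%). Of the 4 cartilage and notochord probe sets, 3 lay under the lower quartile on all arrays and 0 passed. Because intensities of different probe sets cannot be compared, a sum mostly follows its brightest probe sets and is not a tissue amount. The median log2 change of the neural crest list was -0.63 in ERK3 knockdown caps and -0.18 in TFAP2A knockdown caps. Of the 27 mesoderm probe sets, 17 had a negative and 10 a positive change in TFAP2A knockdown caps. The part of the marker differences in the matrix and integrin results was not tested.

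Of 18 collagens, 1 changed in each knockdown, 5.56%, against 10.6% of all probe sets in ERK3 and 11.3% in TFAP2A knockdown caps. The gene for the alpha2 chain of type I collagen, col1a2.L, had intensities of 67.6 and 64.1 in ERK3 knockdown caps, 26.2 and 28.8 in TFAP2A knockdown caps, and 22.1 and 28.7 in control caps. Both ERK3 arrays were higher than the other 4, and the TFAP2A and control arrays overlapped. The gene rose 2.61-fold with ERK3 MO1/2, a log2 change of 1.39 ± 0.16 (SE, 2 arrays per group, limma adjusted p = 0.0108), and its change of 0.13 ± 0.16 with TFAP2A MO1/2 did not pass (adjusted p = 0.699). The direct difference was 1.26 ± 0.16, higher in ERK3 than in TFAP2A knockdown caps (adjusted p = 0.0224). Another col1a2.L probe set read 51.3 and 52.9 in ERK3 knockdown caps, 18.1 and 21.5 in TFAP2A knockdown caps, and 15.8 and 22.1 in control caps. It rose by 1.48 on the log2 scale with ERK3 MO1/2 (adjusted p = 0.013). Both probe sets share the stem of their identifier, and whether they are separate measurements was not tested. The remaining col1a2.L probe set read between 3.90 and 4.37 on all arrays, under the lower quartile. Its change of 0.04 with ERK3 MO1/2 did not pass (adjusted p = 0.861). The call of col1a2.L was lost without Control MO replicate 1 (adjusted p = 0.0558), Control MO replicate 2 (0.0569) or ERK3 MO1/2 replicate 1 (0.0644), with changes of 1.20 to 1.58. The call of the direct difference was lost without any of the ERK3 or TFAP2A arrays (0.0841 to 0.117).

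The partner chain gene col1a1.S had intensities of 11.6 and 9.78 in ERK3 knockdown caps, 9.92 and 9.07 in TFAP2A knockdown caps, and 7.44 and 9.27 in control caps, and neither change passed (adjusted p = 0.228 and 0.539). For col5a1.L, whose product joins type I fibrils, the values were 18.4 and 15.2 in ERK3 knockdown caps, 12.9 on both TFAP2A arrays, and 12.9 and 14.0 in control caps. Its change of 0.32 ± 0.14 with ERK3 MO1/2 did not pass (adjusted p = 0.212). Both genes were chosen after their values were seen. Among the other 9 collagens, the smallest p belonged to col8a1.S, of a short-chain collagen, at 5.10 and 4.73 in ERK3 knockdown caps, 4.52 and 4.45 in TFAP2A knockdown caps, and 3.96 and 3.80 in control caps. All of these values lay under the lower quartile.

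The basement membrane collagens gave the other collagen call. Type XVIII collagen, the source of endostatin, is encoded by col18a1.L, which had intensities of 91.3 and 107 in ERK3 knockdown caps, 61.9 and 74.8 in TFAP2A knockdown caps, and 124 and 173 in control caps. The 3 groups did not overlap. The gene fell to 0.465 of the control level with TFAP2A MO1/2, a log2 change of -1.10 ± 0.21 (adjusted p = 0.0275), and the change of -0.57 ± 0.21 with ERK3 MO1/2 did not pass (adjusted p = 0.142). Its S copy read 11.2 and 13.4 in ERK3 knockdown caps, 12.1 and 11.7 in TFAP2A knockdown caps, and 14.7 and 20.9 in control caps, where -0.56 ± 0.20 with TFAP2A MO1/2 did not pass (adjusted p = 0.138). Leaving out either TFAP2A array (adjusted p = 0.122 and 0.0956) or either control array (0.0523 and 0.117) ended the col18a1.L call.

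The remaining structural proteins did not pass in any contrast. Fibronectin, fn1.S, was bright, at 1045 and 1157 in ERK3 knockdown caps, 1367 and 1394 in TFAP2A knockdown caps, and 1106 and 1116 in control caps. Both TFAP2A arrays were above the other 4, and the change of 0.31 ± 0.12 with TFAP2A MO1/2 had an adjusted p of 0.16. Nidogen-2, which links laminin to type IV collagen, had nid2.L intensities of 138 and 178 in ERK3 knockdown caps, 160.0 and 197 in TFAP2A knockdown caps, and 152 and 145 in control caps. The laminin beta2 gene lamb2.L read 8.12 and 6.41 in ERK3 knockdown caps, 7.05 and 6.91 in TFAP2A knockdown caps, and 7.24 and 8.91 in control caps. Fibrillin fbn3.L read 6.83 and 5.53 in ERK3 knockdown caps, 5.11 and 6.64 in TFAP2A knockdown caps, and 7.14 and 9.47 in control caps. For sparc.L, which encodes a collagen-binding matricellular protein, all 6 arrays lay between 4.56 and 5.58.

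Of 16 integrin subunits, 3 changed with ERK3 MO1/2, 18.8% against 10.6% of all probe sets, with 1 higher and 2 lower. With TFAP2A MO1/2, 4 of 16 changed, 25% against 11.3%, with 2 higher and 2 lower. Over all symbols 11.8% and 12.3% changed in these contrasts. Of the 16 subunits, 7 exceeded the array median on at least 2 arrays, and whether the integrins differ from other genes was not tested. Alpha3, whose alpha3 beta1 integrin binds laminin at the base of epithelia, had itga3.L intensities of 113 and 105 in ERK3 knockdown caps, 46.3 and 59.3 in TFAP2A knockdown caps, and 174 and 196 in control caps. The groups were fully separate, with the TFAP2A arrays lowest. The gene fell to 0.284 of the control level with TFAP2A MO1/2 (log2 change -1.82 ± 0.16, adjusted p = 0.00782) and to 0.589 with ERK3 MO1/2 (-0.76 ± 0.16, adjusted p = 0.0397). Its direct difference of 1.05 ± 0.16 also passed, higher in ERK3 than in TFAP2A knockdown caps (adjusted p = 0.0286). The TFAP2A call of itga3.L was lost only without Control MO replicate 2 (adjusted p = 0.0583), the ERK3 call without any ERK3 or control array (0.106 to 0.178), and the direct call without any of the 6 arrays (0.0608 to 0.126). A further 2 itga3.L probe sets read between 4.4 and 7.6 and did not pass, and the average of all 3 gave changes of -0.73 with TFAP2A MO1/2 (adjusted p = 0.0376) and -0.24 with ERK3 MO1/2 (0.365) and a direct difference of 0.50 (0.126). The ERK3 call was also lost with the arrays quantile-normalized again (0.0547) or centred on their medians (0.0507).

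Alpha6, the other laminin-binding subunit measured, pairs with beta4 in hemidesmosomes. Intensities of itga6.L were 8.35 and 11.5 in ERK3 knockdown caps, 10.9 and 8.71 in TFAP2A knockdown caps, and 21.2 and 17.6 in control caps. Both knockdowns lay under the controls and overlapped each other. The gene fell to 0.507 of the control level with ERK3 MO1/2 (log2 change -0.98 ± 0.21, adjusted p = 0.0406) and to 0.503 with TFAP2A MO1/2 (-0.99 ± 0.21, adjusted p = 0.0379). The ERK3 call of itga6.L held only without ERK3 MO1/2 replicate 2 (adjusted p = 0.0499, against 0.063 to 0.157 without any other array), and the TFAP2A call was lost without any TFAP2A or control array (0.0905 to 0.174). Both itga6.L calls were also lost on repeated quantile normalization (adjusted p = 0.0532 and 0.0504), with 16 added before log2 (0.0584 and 0.0542) and on averaging its probe sets (0.142 and 0.113). A second itga6.L probe set read 6.53 and 6.18 in ERK3 knockdown caps, 5.80 and 6.33 in TFAP2A knockdown caps, and 5.35 and 5.12 in control caps. All of these values lay under the lower quartile. There both knockdowns stood above the controls, and neither change passed (limma adjusted p = 0.203 and 0.338).

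Among the 65 members, the largest rise in each knockdown was that of itga2b.1.S, named for alphaIIb, the fibrinogen-binding subunit of mammalian platelets. Its intensities were 33.2 and 26.7 in ERK3 knockdown caps, 20.0 and 23.0 in TFAP2A knockdown caps, and 6.87 and 7.52 in control caps, near the lower quartile. All 4 knockdown arrays were above both controls. The rise was 4.14-fold with ERK3 MO1/2 (log2 change 2.05 ± 0.16, adjusted p = 0.00807) and 2.98-fold with TFAP2A MO1/2 (1.58 ± 0.16, adjusted p = 0.00846), and the direct difference of 0.47 did not pass (adjusted p = 0.169). Without Control MO replicate 1 or 2 the ERK3 call was lost (adjusted p = 0.0529 and 0.0558), and the TFAP2A call was lost without the second TFAP2A array (0.0633) or the second control array (0.0586).

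Among beta subunits only itgb5.L, of the vitronectin-binding alphaV beta5 integrin, passed. It had intensities of 78.3 and 83.8 in ERK3 knockdown caps, 114 and 125 in TFAP2A knockdown caps, and 59.0 and 52.9 in control caps. The 3 groups were separate, and the gene rose 2.13-fold with TFAP2A MO1/2 (log2 change 1.09 ± 0.13, adjusted p = 0.0107). The change of 0.54 ± 0.13 with ERK3 MO1/2 did not pass (adjusted p = 0.0554), but did with the arrays quantile-normalized again or centred on their medians (0.0457 in both), with 16 added before log2 (0.0394) or with dim probe sets left out (0.0471). Without TFAP2A MO1/2 replicate 1, TFAP2A MO1/2 replicate 2 or Control MO replicate 2 the TFAP2A call was lost (adjusted p = 0.0509, 0.0738 and 0.0694). Other itgb5.L probe sets had changes of 1.26 (adjusted p = 0.066) and -0.07 with TFAP2A MO1/2. With ERK3 MO1/2 their changes were 0.13 and -0.24, and these probe sets did not pass in either knockdown.

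The fibronectin receptor subunits did not pass on their brightest probe sets. The beta1 gene itgb1.L read 1076 and 1125 in ERK3 knockdown caps, 1049 and 900.3 in TFAP2A knockdown caps, and 1216 and 1052 in control caps. Alpha5, itga5.L, read 36.9 and 54.9 in ERK3 knockdown caps, 49.5 and 80.3 in TFAP2A knockdown caps, and 54.3 and 70.3 in control caps. A second itga5.L probe set read 26.9 and 24.3 in ERK3 knockdown caps, 47.6 and 45.4 in TFAP2A knockdown caps, and 41.8 and 44.7 in control caps, and it fell by 0.76 on the log2 scale with ERK3 MO1/2 (adjusted p = 0.022). That call was lost without any ERK3 or control array (adjusted p = 0.0759 to 0.113). The beta3 gene itgb3.L read 11.9 and 28.6 in ERK3 knockdown caps, 18.4 and 32.0 in TFAP2A knockdown caps, and 43.6 and 98.8 in control caps, and its change of -1.83 ± 0.56 with ERK3 MO1/2 did not pass (adjusted p = 0.0966). These 3 genes were chosen after their values were seen.

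**Figure D2:**
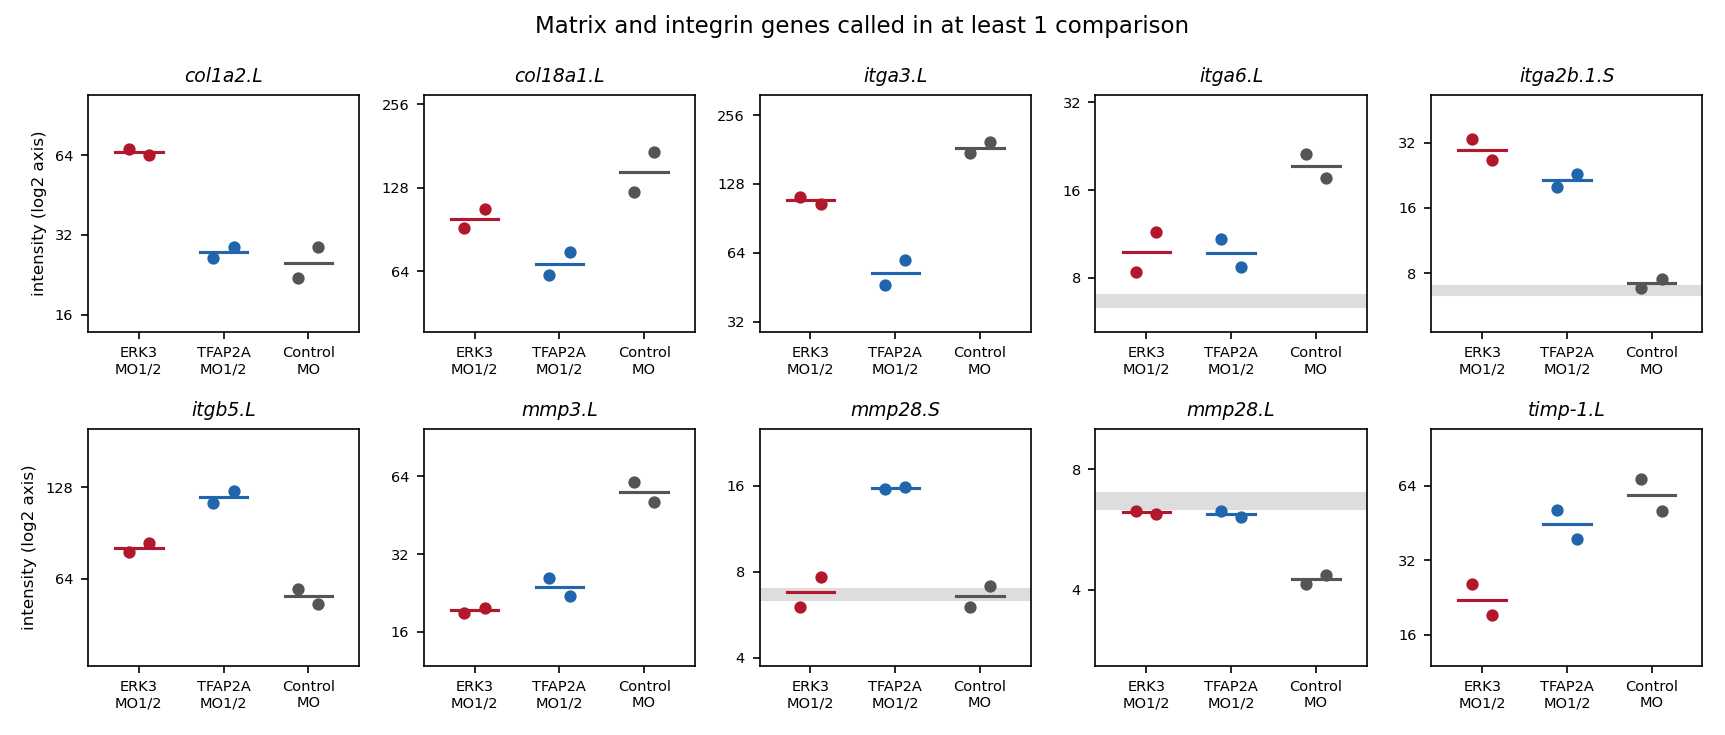
Intensity of the 10 members that passed in at least 1 contrast, a panel each, on a log2 axis, with ERK3 MO1/2, TFAP2A MO1/2 and Control MO from left to right. Points are arrays, short lines are geometric means of 2 arrays, and the grey band spans the lower quartiles of the 6 arrays. The ERK3 points of col1a2.L stand above the other groups, the TFAP2A points of mmp28.S do so in their panel, and all points of mmp28.L lie under the band.

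Among the 18 mmp genes, mmp3.L fell in both knockdowns. Its symbol is that of stromelysin-1, which cleaves proteoglycans, fibronectin and non-fibrillar collagens. Intensities were 19.0 and 19.8 in ERK3 knockdown caps, 25.8 and 22.1 in TFAP2A knockdown caps, and 61.1 and 51.1 in control caps. All 4 knockdown arrays lay under both controls. The level of mmp3.L was 0.347 of control with ERK3 MO1/2 (log2 change -1.53 ± 0.15, adjusted p = 0.00893) and 0.428 of control with TFAP2A MO1/2 (-1.23 ± 0.15, adjusted p = 0.0112). Its ERK3 call was lost without ERK3 MO1/2 replicate 1 (adjusted p = 0.0549), Control MO replicate 1 (0.0529) or Control MO replicate 2 (0.0569), and its TFAP2A call without TFAP2A MO1/2 replicate 2 (0.0738), Control MO replicate 1 (0.0542) or Control MO replicate 2 (0.0586).

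Epilysin, an mmp of mammalian epidermis, is encoded by mmp28. The S copy read 6.02 and 7.64 in ERK3 knockdown caps, 15.6 and 15.8 in TFAP2A knockdown caps, and 6.03 and 7.15 in control caps. Both TFAP2A arrays were above all others, and 1 of the 2 ERK3 and 1 of the 2 control arrays lay under its own lower quartile, so folds against these groups are relative to values near the bottom of the array. The rise of mmp28.S with TFAP2A MO1/2 was 2.39-fold (log2 change 1.26 ± 0.17, adjusted p = 0.0127), its change of 0.05 ± 0.17 with ERK3 MO1/2 did not pass (adjusted p = 0.891), and the direct difference was -1.21 ± 0.17, lower in ERK3 than in TFAP2A knockdown caps (adjusted p = 0.0243). The TFAP2A call was lost without any TFAP2A or control array (adjusted p = 0.0609 to 0.0804) and the direct call without any of the 6 arrays (0.0531 to 0.126). The L copy read 6.31 and 6.18 in ERK3 knockdown caps, 6.29 and 6.06 in TFAP2A knockdown caps, and 4.15 and 4.35 in control caps, all under the lower quartile. It passed as higher in both knockdowns (adjusted p = 0.0374 with ERK3 MO1/2 and 0.0382 with TFAP2A MO1/2), both calls were lost without any of the 6 arrays (0.0628 to 0.16) and with 16 added before log2 (0.0973 and 0.101), and no fold is given at this intensity.

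The timp-1.L gene, for an inhibitor of most secreted mmp enzymes, had intensities of 25.6 and 19.2 in ERK3 knockdown caps, 51.2 and 39.1 in TFAP2A knockdown caps, and 68.1 and 50.5 in control caps. The ERK3 arrays lay under the other 4, and the TFAP2A and control arrays overlapped. It fell to 0.378 of the control level with ERK3 MO1/2 (log2 change -1.40 ± 0.23, adjusted p = 0.0223), and the change of -0.39 ± 0.23 with TFAP2A MO1/2 did not pass (adjusted p = 0.357). The direct difference of -1.01 ± 0.23 did not pass (adjusted p = 0.0712). Its ERK3 call was lost without any ERK3 or control array (adjusted p = 0.0666 to 0.092). The protease gene adamts1.L, which cleaves aggrecan and versican, read 10.4 and 14.4 in ERK3 knockdown caps, 13.1 and 10.5 in TFAP2A knockdown caps, and 16.9 and 19.9 in control caps, and did not pass (adjusted p = 0.135 and 0.109). On their brightest probe sets, the other timp genes and 15 mmp genes did not pass in any contrast.

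Of the 57 gene names in the group, 8 were represented by both homeologues. The log2 changes of the 2 copies had the same sign in 5 of 8 pairs with ERK3 MO1/2 and in 6 of 8 with TFAP2A MO1/2. Both copies of mmp8, sparc and timp2, as well as itga5.S and mmp28.L, lay under the lower quartile on all arrays, where a sign says little. Matching counts over all homeologue pairs were not made, so these counts are not read as agreement of the copies. Probe sets of near-identical copies may take up each other's transcripts, so the copies are not fully separate measurements.

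The enzymes and chaperones that process collagen included 30 genes that are not members. With ERK3 MO1/2, 2 of 30 rose and 1 fell, and with TFAP2A MO1/2, 0 rose and 3 fell. This is 10% in each contrast, near the 10.6% and 11.3% of all probe sets. Hsp47, the collagen chaperone encoded by serpinh1, rose with ERK3 MO1/2 on both copies. The S copy read 83.5 and 86.5 in ERK3 knockdown caps, 32.0 and 26.2 in TFAP2A knockdown caps, and 31.8 and 23.9 in control caps, a log2 change of 1.62 ± 0.19 with ERK3 MO1/2 (adjusted p = 0.0103) and a direct difference of 1.56 ± 0.19 (adjusted p = 0.0196). The L copy read 80.7 and 96.7 in ERK3 knockdown caps, 46.4 and 51.5 in TFAP2A knockdown caps, and 41.3 and 43.9 in control caps, with a log2 change of 1.05 ± 0.14 (adjusted p = 0.0143) and a direct difference of 0.85 ± 0.14 (adjusted p = 0.0343). As for col1a2.L, the ERK3 arrays stood above the other 4 for both copies. The 2 serpinh1 probe sets share the stem of their identifier, and whether they measure separate transcripts was not tested.

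The collagen-processing genes that fell with TFAP2A MO1/2 were p3h1.L and p3h4.L, of the prolyl 3-hydroxylase family, and the lysyl hydroxylase gene plod3.L. For p3h1.L the intensities were 196 and 175 in ERK3 knockdown caps, 109.5 and 87.2 in TFAP2A knockdown caps, and 311 and 241 in control caps, a change of -1.49 ± 0.19 with TFAP2A MO1/2 (adjusted p = 0.0116). The change of p3h4.L was -1.23 ± 0.19 (adjusted p = 0.0165), and plod3.L fell to 0.499 of the control level (adjusted p = 0.0296). All 3 were lower on both TFAP2A arrays than on both control arrays. The lysyl oxidase-like gene loxl1.S, of collagen and elastin crosslinking, fell by 1.29 ± 0.29 with ERK3 MO1/2 (adjusted p = 0.0446). It read 62.6 and 111 in ERK3 knockdown caps, 121 and 149 in TFAP2A knockdown caps, and 188 and 220.5 in control caps, and without ERK3 MO1/2 replicate 1 its change was -0.87 (adjusted p = 0.113).

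**Figure D3:**
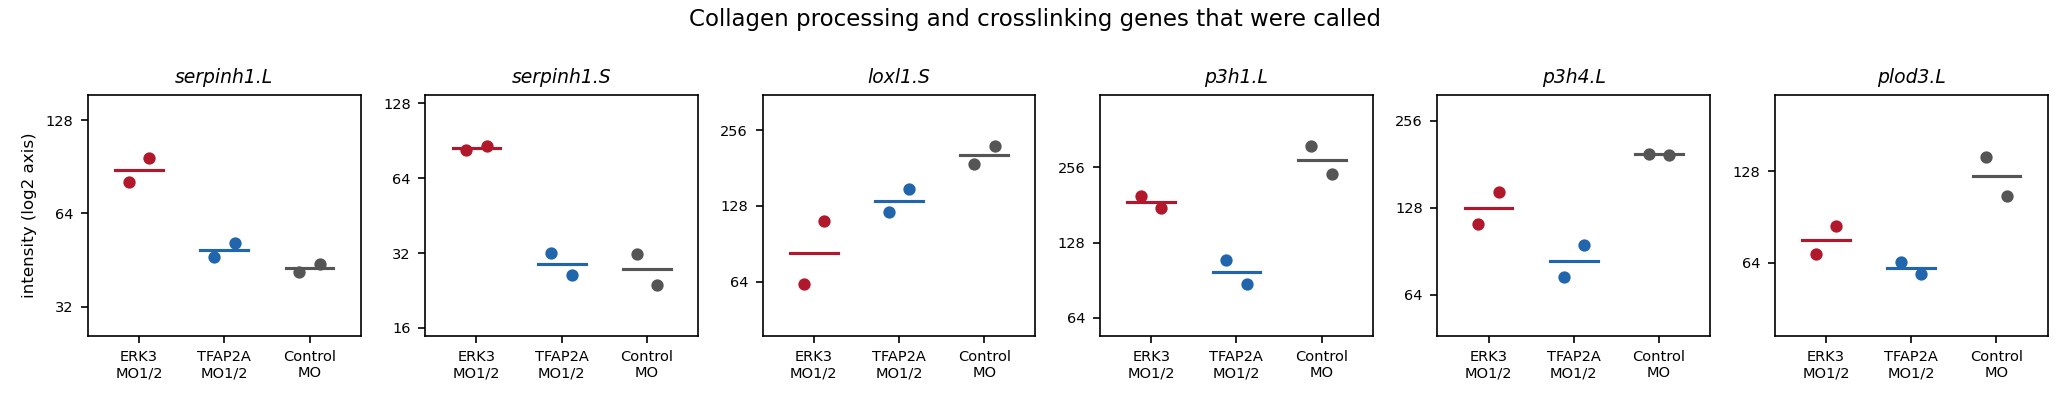
Intensity, on a log2 axis, of the collagen-processing genes that passed, a panel each, with ERK3 MO1/2, TFAP2A MO1/2 and Control MO from left to right. Points are arrays and short lines geometric means of 2 arrays. Both serpinh1 panels have their highest points in ERK3 knockdown caps, and the p3h1.L, p3h4.L and plod3.L panels have their lowest points in TFAP2A knockdown caps.

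Among cytoplasmic proteins of integrin adhesions, 6 of 36 genes changed with ERK3 MO1/2, 16.7% against 10.6% of all probe sets, and 10 of 36 with TFAP2A MO1/2, 27.8% against 11.3%, with 1 and 4 of them higher. In the direct contrast 5 of 36 differed, 13.9% against 4.77%. In the separate fit with dim probe sets left out, 19.5%, 20.3% and 9.57% of the remaining probe sets passed in these contrasts. Its adjustment differs from that of the list counts, and whether the list differs from other genes was not tested. The alpha-actinin gene actn1.L read 131 and 138.5 in ERK3 knockdown caps, 148 and 139 in TFAP2A knockdown caps, and 457 and 508 in control caps. It fell by 1.84 ± 0.13 with ERK3 MO1/2 (adjusted p = 0.00701) and by 1.75 ± 0.13 with TFAP2A MO1/2 (adjusted p = 0.00632). Its S copy, actn1.S, fell by 1.23 ± 0.13 with ERK3 MO1/2 (adjusted p = 0.0096) and also passed as lower with TFAP2A MO1/2, with a change of -0.60. Kindlin-1, the epithelial integrin activator encoded by fermt1.S, read 26.3 and 25.7 in ERK3 knockdown caps, 28.7 and 36.5 in TFAP2A knockdown caps, and 72.3 and 84.3 in control caps. It fell by 1.59 ± 0.16 with ERK3 MO1/2 (adjusted p = 0.00944) and by 1.27 ± 0.16 with TFAP2A MO1/2 (adjusted p = 0.0121). The melusin gene itgb1bp2.L, for a partner of the beta1 tail known from mammalian muscle, rose 10.9-fold with ERK3 MO1/2 and 5.4-fold with TFAP2A MO1/2 (adjusted p = 0.00805 and 0.00951).

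Several other adaptors differed between the knockdowns in the direct contrast. Kindlin-2, encoded by fermt2.L, had intensities of 31.5 and 24.8 in ERK3 knockdown caps, 102 and 79.5 in TFAP2A knockdown caps, and 64.6 and 52.3 in control caps. It fell by 1.06 ± 0.20 with ERK3 MO1/2 (adjusted p = 0.0303), did not pass with TFAP2A MO1/2 (0.63 ± 0.20, adjusted p = 0.106), and had a direct difference of -1.69 ± 0.20 (adjusted p = 0.0197). The S copy, fermt2.S, chosen after its values were seen, read 115 and 106 in ERK3 knockdown caps, 209 and 202 in TFAP2A knockdown caps, and 88.4 and 56.2 in control caps, and rose by 1.54 ± 0.22 with TFAP2A MO1/2 (adjusted p = 0.0151). Its direct difference and its change with ERK3 MO1/2 did not pass, although both ERK3 arrays lay above both control arrays. Focal adhesion kinase, ptk2.S, read 17.9 and 16.6 in ERK3 knockdown caps, 36.2 and 31.5 in TFAP2A knockdown caps, and 13.0 and 11.3 in control caps. It rose by 1.48 ± 0.14 with TFAP2A MO1/2 (adjusted p = 0.00835) and was lower in ERK3 than in TFAP2A knockdown caps, with a direct difference of -0.97 ± 0.14 (adjusted p = 0.0259). The kinase gene src.S read 112 and 102 in ERK3 knockdown caps, 49.9 and 59.3 in TFAP2A knockdown caps, and 132 and 122 in control caps. It fell by 1.22 ± 0.14 with TFAP2A MO1/2 (adjusted p = 0.0102), with a direct difference of 0.97 ± 0.14 (adjusted p = 0.0255). The direct calls of actn4.L, of alpha-actinin-4, and of the paxillin gene pxn.S were -1.27 (adjusted p = 0.0284) and -0.90 (adjusted p = 0.0378), both lower in ERK3 than in TFAP2A knockdown caps. Against the controls, the actn4 copies passed in opposite directions with TFAP2A MO1/2, with changes of 0.94 for actn4.L and -0.87 for actn4.S.

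**Figure D4:**
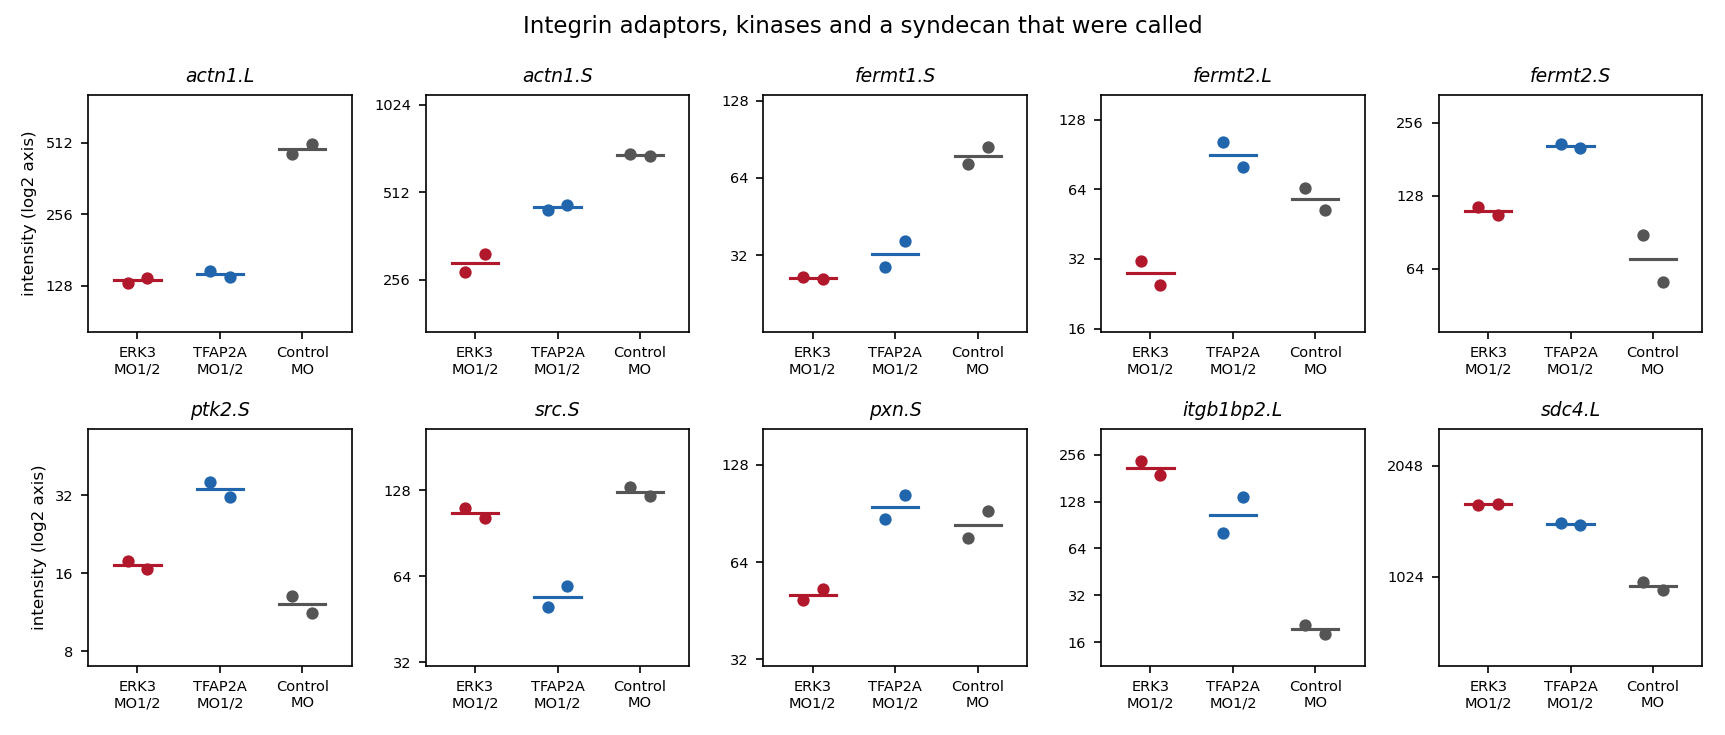
Intensity, on a log2 axis, of selected integrin adhesion adaptor genes and the syndecan gene sdc4.L, a panel each, with ERK3 MO1/2, TFAP2A MO1/2 and Control MO from left to right. Each of these genes passed in at least 1 contrast, and other adaptors that passed are not drawn. Points are arrays and short lines geometric means of 2 arrays. In the actn1.L and fermt1.S panels both knockdowns lie under the controls, and in the fermt2.L panel the ERK3 points are lowest and the TFAP2A points highest.

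Of 36 further matrix proteins, 2 fell with ERK3 MO1/2 (5.56%, against 10.6% of all probe sets), 1 fell with TFAP2A MO1/2 (2.78%, against 11.3%) and 0 rose in either. The matricellular gene ccn1.S fell by 1.71 ± 0.39 with ERK3 MO1/2 (adjusted p = 0.0478). The gene mfap1.L, named as microfibril-associated but known mainly as a spliceosome component, fell by 1.05 ± 0.13 with ERK3 MO1/2 (adjusted p = 0.0116). The proteoglycan gene vcan.L read 5.78 and 6.40 in TFAP2A knockdown caps, under the lower quartile, and 9.79 and 10.0 in control caps, at least 1.51-fold lower against that quartile (adjusted p = 0.032). Of 28 genes listed as other matrix receptors, 2 rose and 3 fell with ERK3 MO1/2, and 4 rose and 1 fell with TFAP2A MO1/2. This is 17.9% in each, against 10.6% and 11.3% of all probe sets. Of the 28 genes, 21 exceeded the array median on at least 2 arrays. In the fit without dim probe sets, 19.5% and 20.3% of the remaining probe sets passed. Whether the list differs from other genes was not tested. The list also holds membrane proteins that are not matrix receptors themselves, among them tspan4.S, cd82.L and emp2.L, which passed with ERK3 MO1/2. The largest change of this list with ERK3 MO1/2 was the rise of tspan4.S, 3.26 on the log2 scale. The gene also passed in the direct contrast, higher in ERK3 than in TFAP2A knockdown caps. The collagen receptor gene ddr1.L read 7.65 and 8.13 in ERK3 knockdown caps, 15.4 and 13.0 in TFAP2A knockdown caps, and 25.8 and 18.4 in control caps, and fell by 1.47 ± 0.19 with ERK3 MO1/2 (adjusted p = 0.0134). Syndecan-4, sdc4.L, read 1606 and 1614 in ERK3 knockdown caps, 1428 and 1414 in TFAP2A knockdown caps, and 993 and 940.1 in control caps, and rose by 0.74 with ERK3 MO1/2 (adjusted p = 0.0186) and by 0.56 with TFAP2A MO1/2 (adjusted p = 0.0351). The dystroglycan gene dag1.S rose by 1.21 ± 0.19 with TFAP2A MO1/2 (adjusted p = 0.0192). Of 18 other metalloproteinases and regulators, 1 fell with ERK3 MO1/2 (5.56%) and 2 fell with TFAP2A MO1/2 (11.1%). These 2 were adam33.L, with a change of -1.90 ± 0.27 (adjusted p = 0.0143), and the proprotein convertase gene furin.L, which activates several mmp enzymes, with -0.65 (adjusted p = 0.0312), and furin.L also fell with ERK3 MO1/2 (adjusted p = 0.0296).

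Calls against the controls, for members and for these lists, rest on the same control arrays. Without Control MO replicate 1 or replicate 2, 0 of 32539 probe sets passed with ERK3 MO1/2 in limma (smallest adjusted p = 0.0519 and 0.0558), while 7287 and 6539 had an unadjusted p under 0.05. Without Control MO replicate 2, 7 probe sets passed with TFAP2A MO1/2, and 0 of the genes named here were among them. Without ERK3 MO1/2 replicate 1 or 2, 3 and 11 of the 17 ERK3 calls in these lists held. Without TFAP2A MO1/2 replicate 1 or 2, 5 and 0 of the 21 TFAP2A calls held, and 5 held without Control MO replicate 1. Of the 10 direct calls in these lists, 0 held without either TFAP2A array.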

How the data were processed

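Xenopus laevis Genome 2.0 arrays (GeneChip) were hybridised with labelled target from 6 cap samples. The authors deposited 1 intensity per probe set: scans were read with GeneChip Operating Software 1.4 and normalized by RMA, the robust multiarray average, with Expression Console, as the design text of the series states. Because RMA brings the arrays to nearly, though not exactly, the same quantiles of probe set values, a shift shared by most transcripts can be hidden. The intensity values ran from 2.51 to 14672, on a linear scale. Precision is limited by the number of arrays, 2 in each group.

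Of 32635 probe sets, 96 manufacturer controls were left out. A platform annotation gave 1 symbol to 15495 of the 32539 tested, several to 279 and none to 16765; RefSeq names of assembly Xenopus_laevis_v10.1 changed 0 member symbols and lacked 1. No coordinates or sequences are given, because no genome was used here. Log2 intensities, with no added constant, were fitted with limma 3.58.1 (lmFit, eBayes) in R 4.3.3 over all 6 arrays with 1 mean per group, 3 residual and 2.99 prior degrees of freedom. Tests were two-sided and adjusted by Benjamini-Hochberg over all probe sets within a contrast. The fit was also run on simulated data with independent noise on every array. Such data lack deviations shared by same-numbered arrays, so that run cannot show how the calls behave with them. The replicates are biological per the labels. The p-values set each change against the spread between replicates, pooled over the 3 groups and moderated by the prior. The main fit holds no term for the replicate number, so a deviation shared by same-numbered arrays stays in that spread. A group with both arrays below their lower quartiles has only a bound, and the change is then given against that quartile.

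The rule for named genes took the members called in any contrast, their homeologues, the member with the smallest p in each family without a call, and up to 4 called genes per contrast from each list of related genes: other matrix proteins, collagen processing, integrin adhesion adaptors, other matrix receptors, other metalloproteinases, and markers of epidermis, mesoderm, endoderm, neural tissue, neural crest, blood, and cartilage and notochord. The members, lists and rule were chosen with earlier results of these data known. Alternatives were each array left out, a replicate block, 2-group fits, repeated quantile normalization, median centring, 16 added before log2, dim probe sets left out (at most 1 array above its median), an intensity trend, and averaging of all probe sets of a symbol.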

Additional observations from a re-analysis of the deposited data

Results flagged for a closer look

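In 3 members the effects of the knockdowns differed from each other by the direct limma contrast. The type I collagen gene col1a2.L was higher in ERK3 than in TFAP2A knockdown caps by 1.26 ± 0.16 on the log2 scale (adjusted p = 0.0224). The integrin gene itga3.L was higher in ERK3 than in TFAP2A knockdown caps by 1.05 ± 0.16 (adjusted p = 0.0286), although both lay under the controls. The metalloproteinase gene mmp28.S had a direct difference of -1.21 ± 0.17, lower in ERK3 than in TFAP2A knockdown caps (adjusted p = 0.0243). In the same contrast 4.77% of all probe sets were called, and no call of the 3 held without every single array in turn. With 2 arrays per group, no array was tested as an outlier.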

How the results depend on the processing

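Counts of called members depended on single arrays. Leaving out 1 array at a time gave 0 to 5 members with ERK3 MO1/2, 0 to 7 with TFAP2A MO1/2 and 0 to 1 in the direct contrast. Over all probe sets it gave 0 to 2002, 7 to 3000 and 0 to 295 calls. The lone array of a group is then assumed to vary like the other groups. Replicate numbers are shared between groups, and the deviations of same-numbered arrays correlated at 0.535, 0.545 and 0.595 across probe sets. The labels give the numbers no further meaning, and only 2 exist. With the replicate block, 11, 10 and 8 members were called in the ERK3, TFAP2A and direct contrasts, among 7945, 7934 and 4831 probe sets (24.4%, 24.4% and 14.8%), and the direct difference of timp-1.L, -1.01, then passed (adjusted p = 0.0040). Averaging all probe sets of a symbol left 4 ERK3 calls among the 65 members, where 1362 of 11303 symbols were called (12%). Leaving out dim probe sets, by the rule that favours changed genes, left 5 TFAP2A calls among the 15 members kept (33.3%, against 20.3% of 17434 probe sets). The 2-group fit left 1 direct call, among 295 probe sets (0.907%). That fit gave 2002 calls with ERK3 MO1/2 over all probe sets. Without dim probe sets the median change was -0.26 with ERK3 MO1/2 and -0.22 in the direct contrast, and leaving out single arrays gave medians of -0.037 to 0.093 with TFAP2A MO1/2. No called change turned its direction. Among uncalled changes, repeated quantile normalization gave mmp28.S -0.020 and sparc.L -0.0023 with ERK3 MO1/2 and mmp28.L -0.030 in the direct contrast, and median centring gave fn1.S 0.038 with ERK3 MO1/2. Leaving out arrays with ERK3 MO1/2 gave fn1.S -0.088 to 0.059, lamb2.L -0.33 to 0.016, mmp28.S -0.13 to 0.22, nid2.L -0.10 to 0.26 and sparc.L -0.062 to 0.21. With TFAP2A MO1/2 it gave col1a2.L -0.064 to 0.32 and sparc.L -0.18 to 0.093. In the direct contrast it gave adamts1.L -0.18 to 0.29, col18a1.S -0.10 to 0.17, fbn3.L -0.11 to 0.27, itga6.L -0.22 to 0.24, lamb2.L -0.12 to 0.22, mmp28.L -0.011 to 0.042 and nid2.L -0.36 to 0.00083. Causes were not tested. For the 25 members under the lower quartile on every array, signal limits what can be seen.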

Other observations

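Members with several probe sets did not always read alike. The brightest timp3.L probe set, for a matrix-bound metalloproteinase inhibitor, had intensities of 13.3 and 10.6 in ERK3 knockdown caps, 12.41 and 14.97 in TFAP2A knockdown caps, and 11.4 and 11.8 in control caps, and did not pass. Another timp3.L probe set read 8.16 and 9.19 in ERK3 knockdown caps, 6.07 and 6.06 in TFAP2A knockdown caps, and 8.72 and 10.2 in control caps, and passed as lower with TFAP2A MO1/2 (limma adjusted p = 0.0401), a call lost without any of the 6 arrays (0.0569 to 0.185). Among members without a call, matrilysin, mmp7.L, read 18.9 and 16.9 in ERK3 knockdown caps, 13.2 and 12.1 in TFAP2A knockdown caps, and 16.7 and 14.1 in control caps, with a direct difference of 0.50 that did not pass (adjusted p = 0.118). The membrane-type gene mmp15.L read 85.0 and 116 in ERK3 knockdown caps, 109 and 123 in TFAP2A knockdown caps, and 106 and 133 in control caps. These genes were chosen after their values were seen.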
